A study of Homo sapiens with 6 samples.

Results

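Keratin genes were followed in H226 cells, a human line from a lung squamous carcinoma, in which an shRNA against p63 can be switched on with doxycycline. A gene was included when a probe set of the array named it alone and its symbol was KRT with a number (keratin-associated proteins and pseudogenes were left out), which gave 48 keratin genes of 18404 genes measured. KRT18 had 2 such probe sets, and the one with the higher mean stood for it. KRT6A, KRT6B, KRT6C, KRT17, KRT81, KRT82 and KRT86 were not analysed here. RNA was hybridised to 6 Affymetrix HuGene 1.0 ST arrays, 2 for each of 3 groups. The shp63 ON cells had been given 1 µg/mL doxycycline for 48 h, according to the treatment protocol; the treatment tag of the same samples reads untreated. The Nutlin-3 cells had the shRNA off and received 10 µM Nutlin-3 for 12 h, a small molecule that blocks MDM2 and so activates p53. The control cells had the shRNA off and grew untreated. All 3 groups were H226 cells with the inducible shRNA, plated in RPMI with serum, and the labels do not say whether they were a clone. Only the shp63 ON cells received doxycycline, and they were treated longer than the Nutlin-3 cells, so the effects of the drug, the time and the shRNA cannot be told apart, and the target of the shRNA was not analysed here.

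Keratins form the intermediate filaments of epithelial cells. Each filament is built from pairs of a type I and a type II keratin, and the pair in use changes with the kind of epithelium and its stage of differentiation. KRT5 and KRT14 mark the basal layer of stratified epithelia, KRT8 and KRT18 mark simple epithelia, and other pairs take over as stratified cells leave the basal layer. The transcription factor p63 belongs to the p53 family and acts in basal and squamous epithelia, and KRT5 and KRT14 are among the genes it is known to regulate. The comparisons ask which keratins differed when p63 shRNA was on or when p53 was activated. In bulk RNA of this kind, fewer cells of a type and less RNA per cell cannot be told apart.

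Values were deposited log2 intensities, with array medians between 6.57 and 6.70 over all probe sets. The correlation across the 48 keratins was 0.997 to 0.999 between arrays of the same group and 0.992 to 0.996 between arrays of different groups. An intensity is a level for its own probe set, and amounts of RNA were not compared between genes. Levels of different genes were set side by side to mark dim genes, to form bands of level and to average markers. To mark keratins with little signal, the 340 olfactory receptor genes of the array were used, and the 95th percentile of their mean level was 6.29. Of the keratins 17 lay above it and 31 at or below it. MDM2, a p53 target, averaged 10.98 in shp63 ON, 12.70 with Nutlin-3 and 11.40 in control, and its rise with Nutlin-3 was 1.30 on the log2 scale (SE 0.14, limma adjusted p = 0.000718). The labels do not say whether replicates were separate cultures, so p-values may measure technical spread alone. With 2 arrays in each group an exact permutation test reaches a two-sided p of 0.333 at the lowest, and the tests given are those of limma fitted across all genes.

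Against control, shp63 ON cells had higher RNA of KRT13, KRT19, KRT80, KRT16, KRT4, KRT15 and KRT8 and lower RNA of KRT5. A gene was called at a limma adjusted p under 0.05. In that comparison 36.2% of all genes were called, 19.7% higher and 16.5% lower, and 13 of 48 keratins were called (27.1%), 12 higher and 1 lower. The share called was thus under that of all genes, and the direction was mostly upward. The median difference of the keratins was 0.13, against 0.04 for all genes, and 40 of the 48 were positive. KRT13 was the 1 called keratin to differ by at least 1.5-fold, and 6.37% of all genes were called at that size. Fewer keratins were called without control replicate 2 or without shp63 ON replicate 2, and fewer of all genes were called in these fits as well.

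With Nutlin-3, KRT15 and KRT19 rose and KRT16, KRT80, KRT74, KRT76 and KRT83 fell against control. Of all genes 18.5% were called in this comparison, 9.64% higher and 8.89% lower, and of the keratins 7 of 48 (14.6%), 2 higher and 5 lower. The median keratin difference was −0.05, against 0.00 for all genes. KRT15 was the 1 called keratin to differ by at least 1.5-fold, and 4.26% of all genes were called at that size. Fewer keratins were called when either control replicate was left out, and fewer of all genes were called then as well.

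Between shp63 ON and Nutlin-3, 51.5% of all genes were called, 27.5% higher and 24% lower in shp63 ON, and 21 of 48 keratins were (43.8%). Of these keratins 19 were higher in shp63 ON and 2, KRT5 and KRT15, were lower. KRT13, KRT16, KRT80, KRT38 and KRT79 were called higher by at least 1.5-fold and KRT15 was called lower by as much. Thus 6 of 48 keratins were called at that size, as were 13.1% of all genes. Fewer keratins, and fewer of all genes, were called without shp63 ON replicate 1. The 3 comparisons share arrays, so their values for a gene are set side by side below and are not independent of each other.

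**Figure D1:**
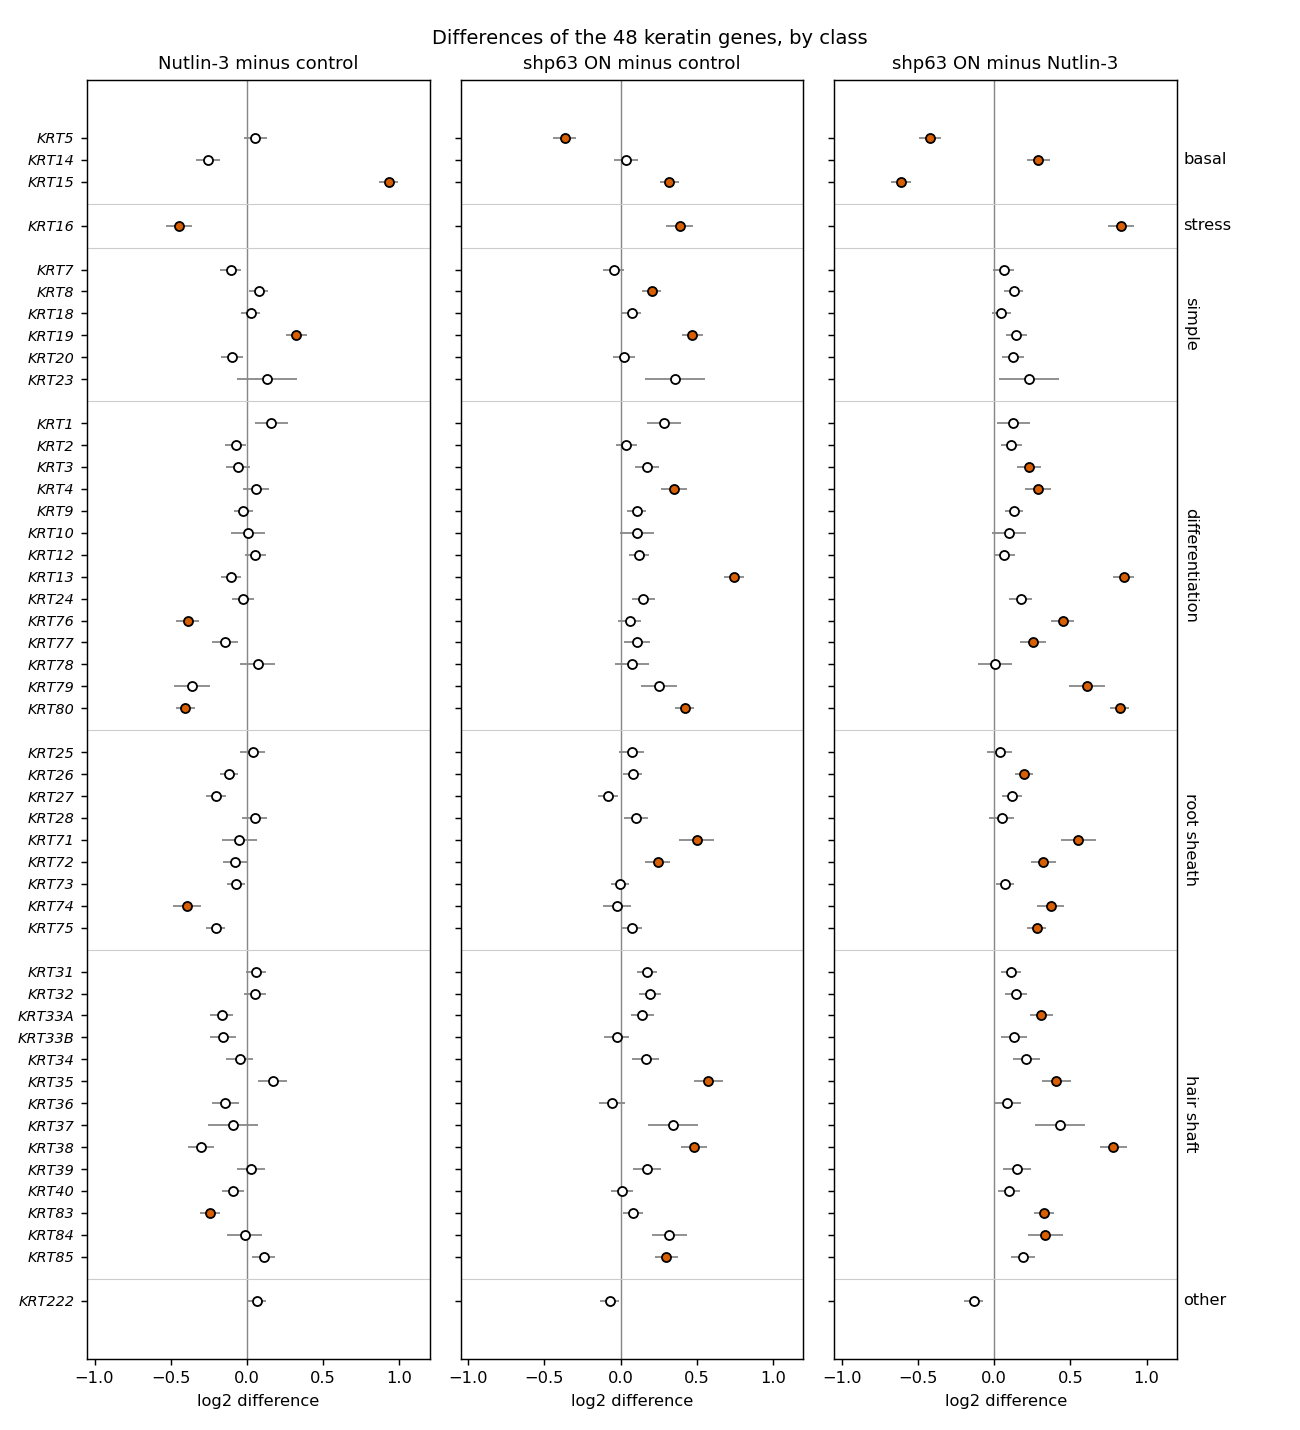
Difference between group means (log2 units) for each of the 48 keratins, grouped by class, for Nutlin-3 minus control (left), shp63 ON minus control (middle) and shp63 ON minus Nutlin-3 (right); bars are limma standard errors and filled points were called at an adjusted p under 0.05. KRT15 lay farthest to the right with Nutlin-3 (0.93) and KRT13 in shp63 ON (0.75), and KRT16 and KRT80 lay on opposite sides of 0 in the 2 comparisons with control.

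The 3 basal keratins went 3 ways. KRT5, the type II keratin of the basal layer, had log2 values of 11.96 and 11.87 in shp63 ON, 12.39 and 12.28 with Nutlin-3 and 12.23 and 12.33 in control. Both shp63 ON arrays lay under all the other arrays. KRT5 fell by 0.37 in shp63 ON against control (SE 0.07, limma adjusted p = 0.00817), which is 0.776 times the control intensity, and was 0.42 lower in shp63 ON than with Nutlin-3 (adjusted p = 0.00247). Its difference with Nutlin-3 was 0.06 (SE 0.07, adjusted p = 0.647). The call against control was lost without control replicate 2 (adjusted p = 0.0612). KRT5 was the only keratin called lower in shp63 ON than in control, and the median of all genes with a mean level of 12 to 13 was −0.03 in that comparison.

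KRT14, the type I partner of KRT5, did not follow it. Its values were 10.49 and 10.34 in shp63 ON, 10.19 and 10.07 with Nutlin-3 and 10.40 and 10.36 in control. In shp63 ON the arrays lay on both sides of the control arrays, and the difference was 0.03 (SE 0.08, limma adjusted p = 0.762). Both Nutlin-3 arrays lay under the control arrays, by 0.26 on average (SE 0.08, adjusted p = 0.0595), short of the threshold on the deposited values and past it after quantile or cyclic loess normalization (adjusted p = 0.0242 and 0.0294). KRT14 was 0.29 higher in shp63 ON than with Nutlin-3 (adjusted p = 0.0162), a call lost without shp63 ON replicate 1 (adjusted p = 0.0973) or without Nutlin-3 replicate 2 (adjusted p = 0.0823).

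KRT15, a type I basal keratin that also marks epithelial stem cells of the hair follicle bulge, was raised by both treatments. It read 7.10 and 7.04 in shp63 ON, 7.65 and 7.71 with Nutlin-3 and 6.76 and 6.74 in control, and the 3 groups did not overlap. The rise with Nutlin-3 was 0.93 (SE 0.06, limma adjusted p = 7.78e-05), a 1.91-fold change. The rise in shp63 ON was 0.32 (SE 0.06, adjusted p = 0.00747), and this call was lost without control replicate 2 (adjusted p = 0.0503). KRT15 was 0.61 lower in shp63 ON than with Nutlin-3 (SE 0.06, adjusted p = 0.000235).

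KRT16, a type I keratin induced in wounded and activated epidermis, was the 1 measured member of the 5 activation and stress keratins. Its values were 9.16 and 9.33 in shp63 ON, 8.50 and 8.33 with Nutlin-3 and 8.85 and 8.87 in control. The groups did not overlap, with shp63 ON highest and Nutlin-3 lowest. Against control it rose by 0.39 in shp63 ON (SE 0.09, limma adjusted p = 0.0119) and fell by 0.44 with Nutlin-3 (SE 0.09, adjusted p = 0.0118). Each of these calls was lost when 1 array was left out: in shp63 ON without either control replicate or shp63 ON replicate 2 (adjusted p = 0.0586 to 0.0653), and with Nutlin-3 without either control replicate or Nutlin-3 replicate 2 (adjusted p = 0.0567 to 0.0715). The direct difference of 0.83 between shp63 ON and Nutlin-3 (adjusted p = 0.000241) held in each of the 16 alternatives run. KRT14 and KRT16 are close in sequence, and a probe set of one may also bind RNA of the other.

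**Figure D2:**
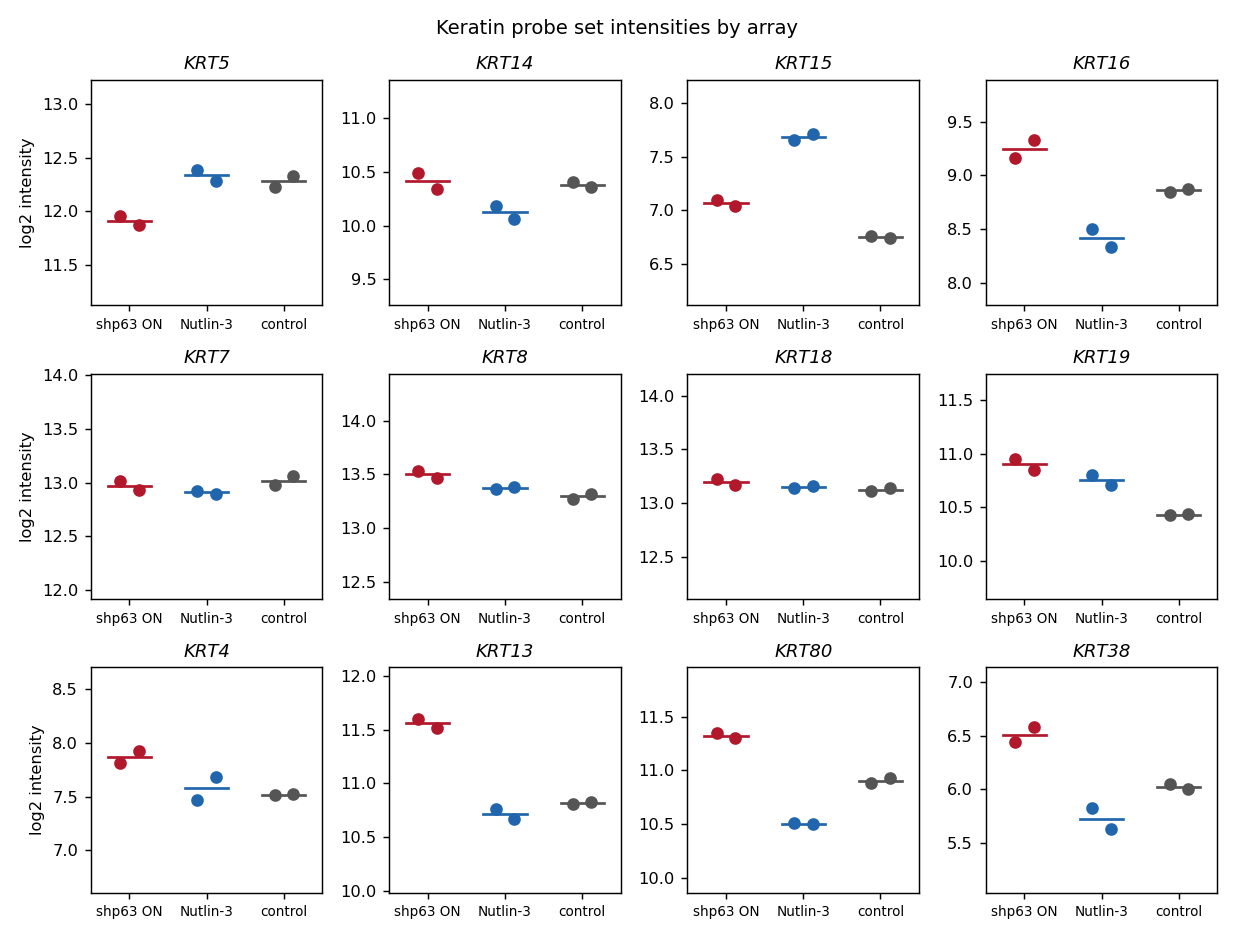
Log2 intensity of named keratins in each array, with shp63 ON, Nutlin-3 and control from left to right; each point is 1 array and the bar is the group mean. KRT5 was lowest in shp63 ON, KRT15 was highest with Nutlin-3, and KRT13, KRT16 and KRT80 were highest in shp63 ON.

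Of the 6 simple epithelial keratins, 2 rose in shp63 ON (33.3%, against 19.7% of all genes) and 1 rose with Nutlin-3 (16.7%, against 9.64%). None was called between shp63 ON and Nutlin-3, where 51.5% of all genes were. KRT19, the smallest keratin, which is found in simple and ductal epithelia, had values of 10.95 and 10.85 in shp63 ON, 10.80 and 10.71 with Nutlin-3 and 10.43 and 10.44 in control. All arrays of both treated groups lay above the control arrays. KRT19 rose by 0.47 in shp63 ON (SE 0.07, limma adjusted p = 0.00224), a 1.39-fold change, and by 0.32 with Nutlin-3 (SE 0.07, adjusted p = 0.0175). The second call was lost without either control replicate or Nutlin-3 replicate 1 (adjusted p = 0.0770 to 0.103). The treated groups differed by 0.15 (SE 0.07, adjusted p = 0.116), which passed the threshold after quantile or cyclic loess normalization (adjusted p = 0.0170 and 0.0179).

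KRT8 and KRT18, the type II and type I partners of simple epithelia, and KRT7, a type II keratin of ducts and glands, moved little. KRT8 read 13.53 and 13.47 in shp63 ON, 13.36 and 13.39 with Nutlin-3 and 13.27 and 13.32 in control. Its rise of 0.20 in shp63 ON (SE 0.06, limma adjusted p = 0.0393) was lost without any 1 of the 4 arrays compared (adjusted p = 0.0693 to 0.170). KRT18 read 13.23 and 13.16 in shp63 ON, 13.14 and 13.16 with Nutlin-3 and 13.11 and 13.13 in control, with differences against control of 0.07 in shp63 ON (SE 0.06, adjusted p = 0.391) and 0.03 with Nutlin-3 (SE 0.06, adjusted p = 0.817). The second KRT18 probe set gave 0.14 in shp63 ON (adjusted p = 0.109). For KRT7 the values were 13.02 and 12.93 in shp63 ON, 12.92 and 12.90 with Nutlin-3 and 12.98 and 13.06 in control, and no comparison was called.

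KRT20, a keratin of the gut and urothelium, and KRT23 lay under the olfactory receptor limit. KRT20 was between 5.44 and 5.68 on all 6 arrays. KRT23 read 6.31 and 6.26 in shp63 ON, 6.41 and 5.70 with Nutlin-3 and 5.85 and 6.0 in control, and the spread of the Nutlin-3 pair (SD 0.50) was the widest of any keratin in any group. Neither gene was called in any comparison.

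Among the 14 keratins of differentiating stratified epithelia, KRT13, KRT80 and KRT4 rose in shp63 ON against control (21.4%, against 19.7% of all genes). None fell, against 16.5% of all genes. With Nutlin-3 none rose, against 9.64% of all genes, and KRT80 and KRT76 fell (14.3%, against 8.89%). The median difference was 0.135 in shp63 ON and −0.04 with Nutlin-3. All 14 differences were positive in shp63 ON, but 10 of these genes lay at or under the olfactory receptor limit, where the values of all genes also shifted upward (see the plot of differences against level). KRT1, KRT2, KRT9, KRT10, KRT12, KRT24 and KRT78 were called in no comparison, including KRT1 and KRT10, the pair of the suprabasal epidermis.

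KRT13, the type I keratin of the suprabasal layers of mucosal squamous epithelia, had the largest difference of any keratin in shp63 ON. It read 11.60 and 11.52 in shp63 ON, 10.76 and 10.67 with Nutlin-3 and 10.81 and 10.82 in control. The shp63 ON arrays stood clear of the other 4. KRT13 rose by 0.75 against control (SE 0.07, limma adjusted p = 0.000273), a 1.68-fold change, and was 0.85 above Nutlin-3 (adjusted p = 8.1e-05). With Nutlin-3 the difference from control was −0.10 (SE 0.07, adjusted p = 0.336). Both calls held in all 16 alternatives. KRT4, the type II partner of KRT13 in mucosa, read 7.81 and 7.92 in shp63 ON, 7.47 and 7.69 with Nutlin-3 and 7.51 and 7.53 in control. It rose by 0.35 in shp63 ON (SE 0.09, adjusted p = 0.0173), which was lost without either control replicate or shp63 ON replicate 2 (adjusted p = 0.0786 to 0.0896), and was 0.29 above Nutlin-3 (adjusted p = 0.0250), which was lost without Nutlin-3 replicate 1 or shp63 ON replicate 2 (adjusted p = 0.126 and 0.127). The pair thus rose together in shp63 ON, KRT13 by more than KRT4 on the log2 scale, a difference between the 2 genes that was not tested.

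KRT80, a type II keratin of differentiating epithelial cells, was called in all 3 comparisons under each of the 16 alternatives. Its values were 11.35 and 11.30 in shp63 ON, 10.51 and 10.50 with Nutlin-3 and 10.88 and 10.93 in control. The groups were far apart for the spread within each. KRT80 rose by 0.42 in shp63 ON (SE 0.06, limma adjusted p = 0.00215), a 1.34-fold change, and fell by 0.40 with Nutlin-3 (SE 0.06, adjusted p = 0.00423), to 0.756 times the control intensity. Between shp63 ON and Nutlin-3 it differed by 0.82 (adjusted p = 6.13e-05), a 1.77-fold change.

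KRT76 and KRT79 were lower with Nutlin-3 than in the other groups, at levels near the olfactory receptor limit. KRT76, a keratin of the palate and gingiva, read 6.23 and 6.16 in shp63 ON, 5.82 and 5.67 with Nutlin-3 and 6.18 and 6.09 in control. It fell by 0.39 with Nutlin-3 against control (SE 0.08, limma adjusted p = 0.0125), which was lost without control replicate 1 or Nutlin-3 replicate 2 (adjusted p = 0.0966 and 0.0593), and was 0.45 higher in shp63 ON than with Nutlin-3 (adjusted p = 0.00219). KRT79, a keratin of the hair follicle canal and sebaceous duct, read 6.84 and 6.60 in shp63 ON, 6.24 and 5.98 with Nutlin-3 and 6.56 and 6.38 in control. It was called between shp63 ON and Nutlin-3 only (0.61, adjusted p = 0.00391), and its difference from control with Nutlin-3 was −0.36 (SE 0.12, adjusted p = 0.0756). KRT3, of the cornea, and KRT77 were also higher in shp63 ON than with Nutlin-3, by 0.23 and 0.25 (adjusted p = 0.0436 and 0.0403), and each of these calls was lost without 5 of the 6 arrays in turn, with adjusted p of 0.0696 to 0.214 for KRT3 and 0.0505 to 0.194 for KRT77.

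Promoter windows are printed for the keratins of the epithelial classes that were called in shp63 ON against control and had one. RefSeq windows on GRCh38.p14, each running from 250 bases before to 50 after the transcript start, were found for 33 of the 48 keratins, and of the epithelial keratins called in shp63 ON against control only KRT5, KRT8 and KRT4 were among them. All 3 genes lie on chromosome 12, minus strand, at chr12:52520345-52520644 (KRT5), chr12:52926420-52926719 (KRT8) and chr12:52814067-52814366 (KRT4). The sequences are given 5′ to 3′ on the gene's strand, with a match to the 10-base p53 family half-site in capitals; the half-site reads the same on both strands.
KRT5: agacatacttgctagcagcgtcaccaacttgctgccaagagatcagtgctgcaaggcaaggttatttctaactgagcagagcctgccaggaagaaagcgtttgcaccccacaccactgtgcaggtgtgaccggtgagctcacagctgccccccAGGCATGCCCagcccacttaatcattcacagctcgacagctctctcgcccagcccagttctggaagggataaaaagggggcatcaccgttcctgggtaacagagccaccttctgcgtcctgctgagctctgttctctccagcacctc
KRT8: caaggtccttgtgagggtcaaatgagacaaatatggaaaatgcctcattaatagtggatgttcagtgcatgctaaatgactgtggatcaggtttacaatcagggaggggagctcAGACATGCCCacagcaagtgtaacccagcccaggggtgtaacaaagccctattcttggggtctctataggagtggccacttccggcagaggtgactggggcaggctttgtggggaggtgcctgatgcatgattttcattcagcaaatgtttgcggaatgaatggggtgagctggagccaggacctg
KRT4: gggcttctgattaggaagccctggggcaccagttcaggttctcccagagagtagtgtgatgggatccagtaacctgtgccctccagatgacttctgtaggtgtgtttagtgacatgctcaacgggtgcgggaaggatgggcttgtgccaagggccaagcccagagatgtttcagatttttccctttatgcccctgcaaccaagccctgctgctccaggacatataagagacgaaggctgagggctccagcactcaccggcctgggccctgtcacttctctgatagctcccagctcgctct
The match in KRT5, the keratin that fell in shp63 ON, begins 97 bases before the start. In the KRT8 window the match begins 136 bases before a transcript start inside the gene, which runs from 52897191 to 52949860. The KRT5 and KRT4 windows span the 5′ start of the gene, which on the minus strand is its higher coordinate. Whether KRT8 RNA of these cells begins at the start shown was not tested. The KRT4 window holds none. The half-site was present in 8 of 37 keratin windows (21.6%), in KRT2, KRT5, KRT8, KRT10, KRT20, KRT24, KRT25 and KRT76, and in 6.63% of 35116 promoter windows of the same length. The motif TATAAA, searched on the strand of the gene, was present in 19 keratin windows (51.4%) and in 7.33% of all windows. A match of letters is a description of the window and no evidence of binding.

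The hair keratins lay mostly at or under the olfactory receptor limit. Of the 9 hair root sheath keratins, 2 (KRT71 and KRT72) were called higher in shp63 ON than in control (22.2%, against 19.7% of all genes). With Nutlin-3 KRT74 fell (11.1%, against 8.89% of all genes). Of the 14 hair shaft keratins measured of 17, 3 (KRT35, KRT38 and KRT85) were called higher in shp63 ON (21.4%, against 19.7%). With Nutlin-3 KRT83 fell (7.14%, against 8.89%). The shares called higher were thus near that of all genes. KRT35, a keratin of the hair matrix and cuticle, read 6.11 and 5.97 in shp63 ON, 5.56 and 5.70 with Nutlin-3 and 5.36 and 5.57 in control, a rise of 0.58 against control (SE 0.10, limma adjusted p = 0.00362). KRT38, of the hair cortex, read 6.44 and 6.58 in shp63 ON, 5.82 and 5.63 with Nutlin-3 and 6.05 and 6.0 in control, a rise of 0.48 against control (SE 0.09, adjusted p = 0.00502). KRT71, of the inner root sheath, read 6.63 and 6.45 in shp63 ON, 6.09 and 5.89 with Nutlin-3 and 6.18 and 5.91 in control, a rise of 0.50 (SE 0.12, adjusted p = 0.0136). For all 3 genes the shp63 ON arrays lay above the other 4.

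The remaining hair calls were smaller or rested on single arrays. KRT71 was not called against control without control replicate 2 or shp63 ON replicate 1 (limma adjusted p = 0.0859 and 0.0827). KRT85 rose by 0.30 in shp63 ON (adjusted p = 0.0192) and was not called without control replicate 2 or either shp63 ON replicate (adjusted p = 0.0573 to 0.116), nor after quantile or cyclic loess normalization (0.20 and 0.15, adjusted p = 0.0787 and 0.180). KRT72 rose by 0.24 (adjusted p = 0.0499) and lost its call in 13 of the 15 alternatives that tested it. With Nutlin-3, KRT74 fell by 0.39 (adjusted p = 0.0228) and KRT83 by 0.24 (adjusted p = 0.0392), and leaving out single arrays ended the call of KRT74 for either control replicate or Nutlin-3 replicate 1 (adjusted p = 0.0908 to 0.121) and that of KRT83 for every array (adjusted p = 0.0544 to 0.173). Between shp63 ON and Nutlin-3, 5 root sheath keratins (KRT26, KRT71, KRT72, KRT74 and KRT75) and 5 hair shaft keratins (KRT33A, KRT35, KRT38, KRT83 and KRT84) were higher in shp63 ON. These were 55.6% and 35.7% of the 2 classes, against 27.5% of all genes and 41.9% of all genes with a mean level of 5 to 7. The differences ran from 0.20 (KRT26) to 0.78 (KRT38), and none of these keratins was lower. Leaving out shp63 ON replicate 1 ended the calls of KRT26, KRT33A, KRT35, KRT72, KRT74 and KRT84 (adjusted p = 0.0614 to 0.176), and leaving out Nutlin-3 replicate 1 those of KRT26, KRT35, KRT72, KRT74 and KRT84 (adjusted p = 0.0508 to 0.214); KRT26 was also lost without any other array (0.0511 to 0.0991) and KRT84 without shp63 ON replicate 2 (0.0825). KRT38, KRT71, KRT75 and KRT83 kept theirs without any 1 array. KRT33A was called there (0.31, adjusted p = 0.0112) and its close paralog KRT33B was not (0.13, adjusted p = 0.232); probe sets of such close copies can share signal.

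The upward shift of dim keratins was shared by other genes of the same level. Among all genes with a mean level of 5 to 7, 27.8% were called higher in shp63 ON than in control and 7.04% lower, and of the 29 keratins in that range 5 were called higher (17.2%) and none lower. Among all genes with a mean level of 8 or more, 15.2% were called higher and 27.3% lower, and of the 9 keratins there 5 were called higher (KRT8, KRT13, KRT16, KRT19 and KRT80) and 1 lower (KRT5). In both ranges the direction of the keratins was upward, but that of all genes was upward only in the dim one. The olfactory receptor genes were called higher in shp63 ON in 24 of 340 cases and lower in 5. Of the 68 keratin-associated protein genes, which encode the matrix around hair keratins and were no members here, 25 were called higher in shp63 ON and none lower.

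**Figure D3:**
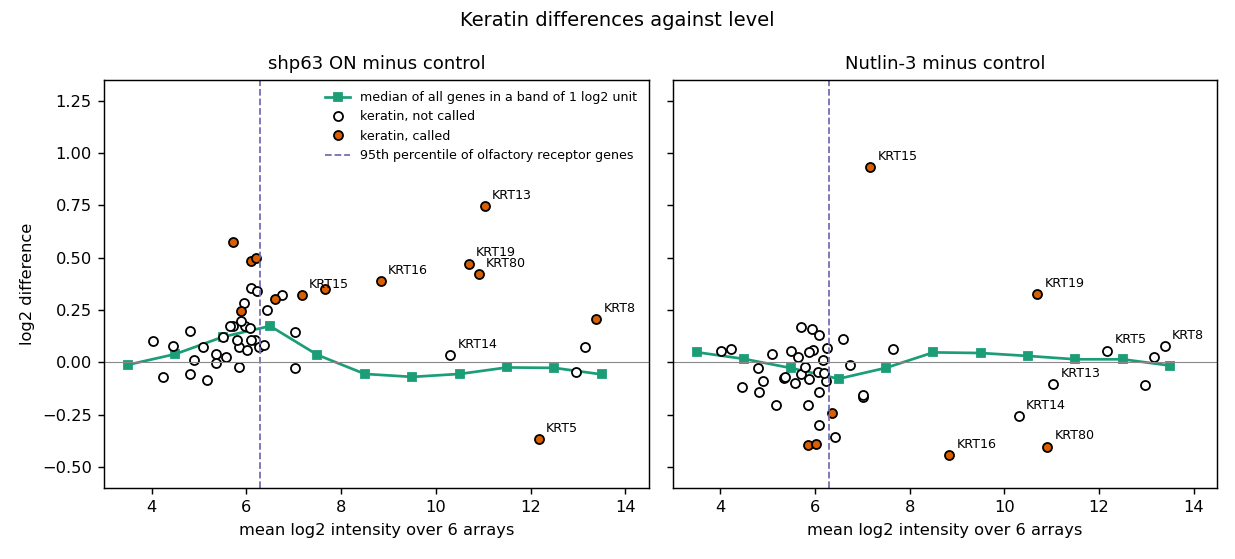
Difference from control on the log2 scale against the mean log2 intensity over the 6 arrays, for shp63 ON (left) and Nutlin-3 (right); circles are the 48 keratins, filled where called, squares are medians of all genes in bands of 1 log2 unit, and the dashed line is the olfactory receptor limit of 6.29. In shp63 ON the median of all genes reached 0.17 in the band from 6 to 7 and was −0.06 in the band from 8 to 9, and KRT13, KRT16, KRT19 and KRT80 lay well above the medians of their own bands.

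Cyclic loess normalization, which removes a trend of the difference with level, brought the dim keratins in shp63 ON nearer to 0 against control. After it 10 keratins were called higher in shp63 ON than in control (20.8%, against 13.3% of all genes) and 1 lower. Of all genes 29.7% were called in either direction. The keratin median was 0.04, and KRT72 and KRT85 were no longer called (0.10 and 0.15, limma adjusted p = 0.329 and 0.180). For the 29 keratins with a mean level of 5 to 7 the median difference was 0.015, with 3 called higher (10.3%, against 7.59% of all genes at that level). For the 9 at 8 or more the counts were again 5 higher (55.6%, against 19.7% of all genes at that level) and 1 lower. Their median was 0.20 on the deposited values and 0.21 after cyclic loess. Between shp63 ON and Nutlin-3 the number called was 12, with 10 higher (20.8%, against 21.5% of all genes) and 2 lower. Of all genes 45.1% were called in either direction. The calls of KRT3, KRT4, KRT33A, KRT35, KRT72, KRT74, KRT75, KRT77, KRT83 and KRT84 were lost and KRT19 was called. The median of the 9 brighter keratins in that comparison was 0.15 on the deposited values and 0.24 after it. With Nutlin-3 against control 2 were called higher and 5 lower, as many as on the deposited values, but KRT14 was called and KRT83 was not (limma adjusted p = 0.0294 and 0.0882). Of all genes 18.1% were called there after cyclic loess. The direction of the olfactory receptor calls in shp63 ON turned, with 6 higher and 13 lower after cyclic loess, and the keratin-associated proteins had 15 higher and 2 lower.

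**Figure D4:**
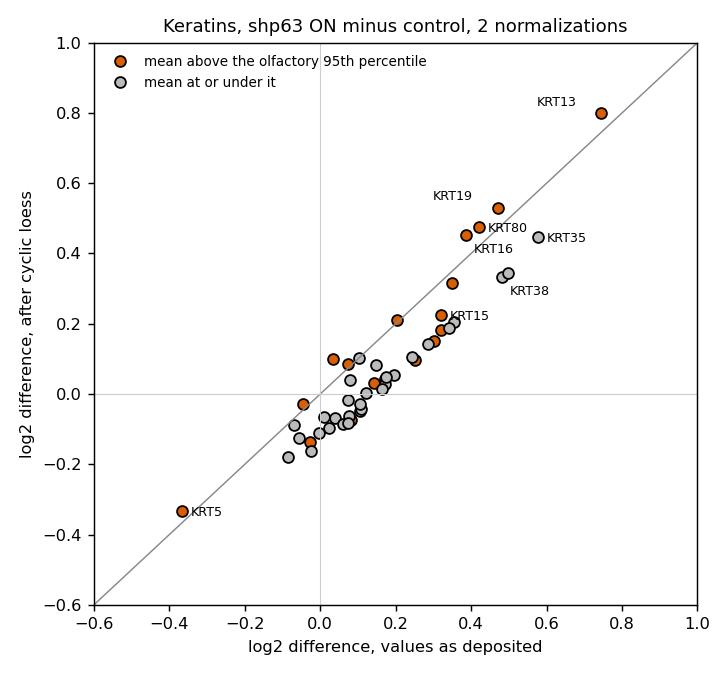
Difference of shp63 ON minus control for each keratin after cyclic loess normalization against the same difference on the deposited values, both on the log2 scale, with the line of equal values. Keratins at or under the olfactory receptor limit lay mostly below the line, and KRT13, KRT19, KRT80, KRT16 and KRT5 lay near it.

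Called genes were found in both keratin types. Of the 20 type II keratins, 6 were called higher and 1 lower in shp63 ON against control. Of the 28 type I keratins 6 were called higher and none lower. Of all genes 19.7% were called higher and 16.5% lower in that comparison. With Nutlin-3 the type II keratins had none higher and 4 lower, and the type I keratins 2 higher and 1 lower. Of all genes 9.64% were called higher and 8.89% lower with Nutlin-3. KRT13, KRT15 and KRT19 are direct neighbours in the type I cluster on chromosome 17, in that order, and their patterns differed: KRT13 was called against control in shp63 ON and not with Nutlin-3, KRT15 was higher with Nutlin-3 than in shp63 ON, and KRT19 was called higher in both treated groups. KRT14 and KRT16, also next to each other in that cluster, had differences from control of 0.03 and 0.39 in shp63 ON and of −0.26 and −0.44 with Nutlin-3.

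On the deposited values, genes that anchor keratin filaments to junctions were called about as often as all genes in the comparisons with control. Of 21 plakin and desmosome genes, 5 rose and 3 fell in shp63 ON against control (38.1% called, against 36.2% of all genes), and 4 rose and 1 fell with Nutlin-3 (23.8%, against 18.5%). After cyclic loess normalization 8 rose (38.1%, against 13.3% of all genes) and 3 fell in shp63 ON, where 29.7% of all genes were called. With Nutlin-3, 3 rose (14.3%, against 9.28% of all genes) and 1 fell, where 18.1% of all genes were called. Periplakin (PPL), which links keratins to the cornified envelope, rose by 0.83 in shp63 ON (SE 0.08, limma adjusted p = 0.000426), and the desmosomal cadherin DSC2 and the desmosomal plaque protein PKP1 rose by 0.41 and 0.36. The basal desmosomal cadherins DSG3 and DSC3 and the hemidesmosome integrin ITGB4 fell in shp63 ON, by 0.73, 0.57 and 0.75. With Nutlin-3, DSG3 rose by 2.03 (SE 0.06, adjusted p = 3.77e-06) and DSC3 by 0.76 (adjusted p = 0.000461), and DSC2 fell by 0.44 (adjusted p = 0.00227). Plectin (PLEC) rose by 0.26 with Nutlin-3, a call lost without any 1 of the 4 arrays compared (adjusted p = 0.0518 to 0.124). Set directly against Nutlin-3, shp63 ON cells had 7 of these genes higher (33.3%, against 27.5% of all genes) and 4 lower (19%, against 24%). PPL (1.01), DSC2 (0.85) and PKP1 (0.48) led upward and DSG3 (−2.76), DSC3 (−1.32) and ITGB4 (−0.89) downward. DSG3 and DSC3 thus lay on opposite sides of control in the 2 treated groups, as did DSC2 the other way round.

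Of 15 other intermediate filament genes, 5 rose and 2 fell in shp63 ON (33.3% and 13.3%, against 19.7% and 16.5% of all genes), and 1 rose and 4 fell with Nutlin-3 (6.67% and 26.7%, against 9.64% and 8.89%). After cyclic loess normalization 3 rose (20%, against 13.3% of all genes) and 2 fell in shp63 ON, and the counts with Nutlin-3 were again 1 and 4. The nuclear lamins LMNB1 and LMNB2 fell in both, LMNB1 by 0.90 in shp63 ON (limma adjusted p = 0.000308) and 1.29 with Nutlin-3 (adjusted p = 6.6e-05), and LMNB2 by 0.69 in shp63 ON (adjusted p = 0.000513) and 0.44 with Nutlin-3 (adjusted p = 0.00605). Synemin (SYNM), a large filament protein that joins other filaments, rose by 0.59 in shp63 ON (adjusted p = 0.00114). Desmin (DES) and GFAP, filament proteins of muscle and astrocytes, were called higher in shp63 ON by 0.35 and 0.47, and GFAP was not called without either control replicate or shp63 ON replicate 1 (adjusted p = 0.0542 to 0.0805) or after cyclic loess (adjusted p = 0.0553). LMNA rose by 0.28 and peripherin (PRPH) fell by 0.32 with Nutlin-3; the first call was lost without either control replicate or Nutlin-3 replicate 1 (adjusted p = 0.0852 to 0.146) and the second without 5 of the 6 arrays (adjusted p = 0.0563 to 0.176). Between shp63 ON and Nutlin-3, 9 genes were higher (60%, against 27.5% of all genes) and 1 lower (6.67%, against 24%) in shp63 ON. The median level of the 15 genes was 6.14, and of all genes with a mean level of 5 to 7, 41.9% were called higher there. SYNM (0.84), GFAP (0.63) and DES (0.63) led upward. LMNB2 (−0.25) was the gene that was lower, a call lost without Nutlin-3 replicate 1 or either shp63 ON replicate. After quantile or cyclic loess normalization LMNB2 differed in that comparison by −0.11 or −0.13 (limma adjusted p = 0.213 and 0.159). The cyclic loess counts were 6 higher (40%, against 21.5% of all genes) and 0 lower. Vimentin (VIM), the mesenchymal filament protein, had a mean level of 5.29 and was called in no comparison.

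Of 18 measured genes of keratin turnover, modification and bundling, 4 rose and 2 fell in shp63 ON (33.3% called, against 36.2% of all genes), and 1 rose and 1 fell with Nutlin-3 (11.1%, against 18.5%). After cyclic loess normalization 2 rose (11.1%, against 13.3% of all genes) and 2 fell in shp63 ON. With Nutlin-3, 2 rose (11.1%, against 9.28% of all genes) and 1 fell. Between the treated groups 3 were higher in shp63 ON (16.7%, against 21.5% of all genes) and 6 were lower. Filaggrin (FLG), which bundles keratins in the outer epidermis, rose by 1.06 in shp63 ON (SE 0.14, limma adjusted p = 0.0015). Its mean level of 5.81 lay under the olfactory receptor limit. Contrasts without moderation called FLG neither against control nor against Nutlin-3 (adjusted p = 0.0658 and 0.051). KLHL24, an adaptor of a ubiquitin ligase that targets keratins, rose by 0.69 (SE 0.06, adjusted p = 0.000288). PADI1, a peptidylarginine deiminase that modifies keratins, rose by 0.29, and was not called without control replicate 1 (adjusted p = 0.0598) or after quantile or cyclic loess normalization (0.19 and 0.17, adjusted p = 0.0570 and 0.0864). FAM83H, which recruits casein kinase to keratin filaments, rose by 0.41 with Nutlin-3 (adjusted p = 0.00392) and fell by 0.25 in shp63 ON, where the call was lost without either control replicate or shp63 ON replicate 1 (adjusted p = 0.0619 to 0.106) or after cyclic loess (adjusted p = 0.0591). The arginine methyltransferase PRMT1 fell by 0.43 in shp63 ON, lost without control replicate 2 or shp63 ON replicate 2 (adjusted p = 0.0864 and 0.0749). The small heat shock protein HSPB1 fell by 0.23 with Nutlin-3 and lost its call without each array in turn (adjusted p = 0.0565 to 0.162). On the deposited values, 7 genes were higher in shp63 ON than with Nutlin-3 (38.9%, against 27.5% of all genes) and 5 were lower (27.8%, against 24%). Those higher were led by FLG (0.99), KLHL24 (0.63) and the crosslinking enzyme TGM1 (0.38). Those lower were led by FAM83H (−0.66), PRMT1 (−0.40) and the keratin-binding protein TRIM29 (−0.32). Of these 6, TGM1 was not called without shp63 ON replicate 1 (adjusted p = 0.0521) or after cyclic loess (0.22, adjusted p = 0.0682), and PRMT1 was not without Nutlin-3 replicate 1 or shp63 ON replicate 2 (adjusted p = 0.0542 and 0.0713).

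Of the 10 squamous epithelium markers measured, 8 lay above the olfactory receptor limit, KRT5 and KRT14 among them. SOX2 (5.75) and CALML3 (6.04) lay under it, and KRT6A and TP63 were not analysed here. The mean level of the 10 per array was 8.93 to 8.94 in shp63 ON, 9.53 to 9.57 with Nutlin-3 and 9.08 to 9.10 in control. With Nutlin-3, 4 were called higher (40%, against 9.64% of all genes) and none lower. DSG3 (2.03) and CLCA2 (1.84) led, and the median difference was 0.08, against a mean of 0.46. In shp63 ON, 2 were called higher (20%, against 19.7% of all genes) and 4 lower (40%, against 16.5%). Markers of other cell types lay mostly at lower levels. The brighter ones, MSLN, BNC1, CD68, COL1A1 and TYROBP, had mean levels of 9.90, 9.94, 9.63, 8.28 and 7.97. Of all genes with a mean of 5 to 7, 27.8% were called higher in shp63 ON, and of those at 8 or more 15.2%. CD68, TYROBP and MSLN were among the markers called higher, by 0.75, 0.54 and 0.27, and BNC1 was called lower, by 0.37. Of 8 markers of glandular airway and alveolar epithelium, 3 lay above the limit and 6 were called higher in shp63 ON, with mean levels per array of 6.26 to 6.32 in shp63 ON, 5.92 to 5.95 with Nutlin-3 and 6.02 to 6.09 in control. Of 6 leukocyte markers, 3 lay above the limit and 3 were called higher, with mean levels of 6.58 to 6.60 in shp63 ON, 6.15 to 6.23 with Nutlin-3 and 6.22 to 6.24 in control. Mesothelial markers had 3 of 7 called higher and 1 lower in shp63 ON, at mean levels of 6.94 to 7.04 in shp63 ON, 6.93 to 6.96 with Nutlin-3 and 6.80 to 6.87 in control, and fibroblast markers had 2 of 7 called higher, at mean levels of 5.82 to 5.85 in shp63 ON, 5.66 to 5.71 with Nutlin-3 and 5.72 to 5.73 in control. After cyclic loess normalization none of the 8 glandular and none of the 7 fibroblast markers was called higher in shp63 ON. Of the mesothelial markers 1 of 7 was, and of the leukocyte markers 3 of 6, against 13.3% of all genes. Log2 intensities have no true 0, and no marker was at 0. The part of these markers in the keratin results was not tested.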

How the data were processed

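Log2 intensities of probe sets on 6 Affymetrix HuGene 1.0 ST arrays were used as deposited by the authors; the log2 scale was read from the values, and the array medians were close to each other, as in values normalized between arrays. The submitters' processing notes name Partek, and the design text an analysis of variance; the version, the background correction and the normalization method were not found in the labels. Of 32321 probe sets, 19158 name 1 gene in the platform annotation, which gave 18404 genes; the probe set with the highest mean stood for each of the 637 genes with several. limma 3.58.1 (lmFit and eBayes, R 4.3.3) fitted the 3 group means over all 6 arrays, without filter or covariates, and p-values carry a Benjamini-Hochberg adjustment over 18404 genes. The fit was tested on simulated data. Precision is limited by the number of arrays.

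The members, gene lists and tests were chosen with earlier results of these data known. Genes named are all basal, stress and simple keratins, every other keratin called in any comparison or above the olfactory receptor limit, and the 3 largest called changes per comparison and direction of each other list. Same-numbered replicates were not paired: correlations of their deviations were −0.06, −0.02 and 0.11. The 16 alternatives per comparison covered normalization, a filter on dim genes, the choice of probe set, moderation, the arrays in the fit, the replicate block and leaving out each array.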

Additional observations from a re-analysis of the deposited data

Results flagged for a closer look

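A probe set outside the rule for the members, which names KRT16 together with its pseudogenes KRT16P1, KRT16P2 and KRT16P3, was called higher in shp63 ON than in control. Its log2 values were 8.28 and 8.13 in shp63 ON, 7.46 and 7.61 with Nutlin-3 and 7.96 and 7.88 in control, a difference of 0.28 in shp63 ON against control (limma adjusted p = 0.0422) and of −0.39 with Nutlin-3 against control (adjusted p = 0.0241). Its directions were those of the KRT16 probe set.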

How the results depend on the processing

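No named keratin difference past the threshold changed direction under any of the 16 alternatives, and 12 of the 41 keratin calls held in every alternative that tested them: KRT80 in all 3 comparisons, KRT13 in shp63 ON against control and against Nutlin-3, KRT15 with Nutlin-3 against control and in shp63 ON against Nutlin-3, KRT19 in shp63 ON against control, and KRT5, KRT16, KRT38 and KRT76 in shp63 ON against Nutlin-3. Contrasts without moderation called 4 keratins in shp63 ON against control (4 higher, 0 lower), 2 with Nutlin-3 (1 higher, 1 lower) and 12 between the treated groups (10 higher). Of all genes they called 16.3%, 6.72% and 33.1%. In shp63 ON against Nutlin-3 the count was 13 after quantile normalization (11 higher) and 12 after cyclic loess (10 higher). Of all genes 45.5% and 45.1% were called under these settings. With the filter on dim genes 12 of the 17 keratins kept were called (10 higher), against 64.5% of the 12425 genes kept. Without the filter 11 of the same 17 keratins were called. Leaving out each array in turn gave 5 to 15 keratins called in shp63 ON against control (5 to 14 higher, 0 to 1 lower), 2 to 6 with Nutlin-3 (1 to 3 higher, 1 to 4 lower) and 12 to 23 between the treated groups (10 to 21 higher, 2 lower). With the replicate number as a block, 13 keratins were called in shp63 ON and 8 with Nutlin-3 (each against control) and 20 between the treated groups. Of all genes 35.5%, 16.8% and 51.1% were called with the block. The replicate numbers did not pair the arrays. The cause of these shifts was not tested. Signal near the olfactory receptor limit restricts what the 31 dim keratins can show.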
